A study of Mus musculus with 14 samples.

Results

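Vascular smooth muscle cells of the mouse nucleus accumbens were taken from 8 Drop-seq pools as the cell barcodes that carried transcripts of the smooth muscle genes Acta2, Tagln and Myl9. A barcode was kept when it had at least 300 detected genes and at most 20% of its unique molecular identifiers (UMIs, the counted transcript molecules) on mitochondrially encoded genes. It was then counted as a vascular smooth muscle cell when Acta2 and Tagln together had at least 3 UMIs, Myl9 had at least 1, and the endothelial genes Cldn5, Flt1 and Ly6c1 together had at most 2. The rule found 426 members among 33225 kept barcodes, which is 1.28% of them, out of 36000 deposited barcodes. The members were chosen by these 6 genes, so the levels of those genes are described below and were not tested.

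Vascular smooth muscle cells wrap arteries and arterioles and set the width of the vessel by contracting. Calcium entering the cell or released from its stores activates myosin light chain kinase, which phosphorylates the regulatory light chain and lets myosin pull on actin, while cyclic GMP signalling relaxes the cell. Their contractile genes are switched on together by serum response factor with its partner myocardin, and in the brain they sit next to pericytes, which cover capillaries, and to the endothelial cells of the blood-brain barrier.

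The series injected male C57BL/6 mice intraperitoneally with saline, called mock, or with morphine sulfate, and the labels give neither dose nor time after injection. Each accumbens pool held tissue of 2 mice that was dissociated with papain, and 4 pools were mock and 4 morphine. Pools numbered 1 came from mice of 42 to 45 days and pools numbered 2 from mice of 37 to 42 days, together called younger; pools numbered 3 came from mice of 78 to 82 days and pools numbered 4 from mice of 78 days, together called older. The labels name no allele or transgene, the sorted oligodendrocyte libraries of the series were not used here, and the pool of 2 mice is the replicate in every test.

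The 8 tables held 3000 or 6000 barcodes and 6910203 to 24668659 UMIs each. The members numbered 28, 105, 45 and 50 in mock pools 1 to 4 and 31, 78, 48 and 41 in morphine pools 1 to 4. Their median depth was 1596 UMIs, with a range of 485 to 17645. The tables of mock 1 and morphine 1 used another set of gene symbols than the other 6. No barcode was a member in more than 1 pool, and 1 member barcode was also kept in another pool.

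Several smooth muscle markers that the rule did not use were found in most members. Myh11, the smooth muscle myosin heavy chain, had a UMI in 92.3% of members, against 10.05% of pericytes, 1.07% of endothelial cells and 1.20% of neurons gated from the same pools. Tpm2, a tropomyosin of the contractile filament, was found in 91.5% of members and 1.07% of endothelial cells. Lmod1, a leiomodin that nucleates actin filaments, was found in 77.2% of members and in 0.315% of endothelial cells. The pericytes and endothelial cells were gated to have at most 1 UMI of Acta2 and Tagln, and the neurons excluded the members. Low shares in these types follow in part from those gates. With every barcode thinned to 800 UMIs, which left 403 members, 335 pericytes and 1451 endothelial cells, the shares for Myh11 were 84.6%, 6.27% and 0.345%. Desmin (Des) and calponin (Cnn1) were sparser, at 43.0% and 17.8% of members. Median depth was 1596 UMIs in members, 1278 in 408 pericytes, 1657 in 1585 endothelial cells and 3114.5 in 19802 neurons. RNA of other cells was present. The 12 neuron markers took 0.187 to 1.12% of member UMIs by pool, and 74 members had more than 5 UMIs of Snap25, Syt1, Stmn2 and Meg3.

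The rule genes themselves were high in every pool. In GENCODE vM21 on GRCm38, the build the labels call mm10, Acta2 lies on chromosome 19 at 34241090-34255590 (minus strand), Tagln on chromosome 9 at 45929619-45936058 (minus strand) and Myl9 on chromosome 2 at 156775420-156781658 (plus strand). Exons of Pcsk7 and Gm48529 overlap Tagln on the other strand. Levels are given in CPM, the UMIs of a gene summed over the members of a pool per 1000000 UMIs of that sum. Acta2, the smooth muscle actin, stood at 7297, 7924, 7187 and 4296 in mock pools 1 to 4 and at 4051, 7154, 6459 and 3056 in morphine pools 1 to 4. Tagln, the actin-binding protein transgelin, stood at 4439, 5565, 5668 and 3899 CPM and 3289.7, 4859, 5606 and 3166 CPM in the same order. Myl9, the regulatory myosin light chain, stood at 4419, 4753, 5324 and 3445 CPM and 2771, 4333, 5030.0 and 2592 CPM. Mock 4, morphine 1 and morphine 4 held the 3 lowest values of all 3 genes, and the treatment groups overlapped. Pericytes reached at most 53.1 CPM of Acta2, which their own gate restricts, but carried 815 ± 291 CPM of Myl9 (mean ± SD, n = 8 pools).

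Members near the limit of the rule were not sharply divided from barcodes just outside it. There were 45 members with only 3 or 4 UMIs of Acta2 and Tagln, with a median depth of 1361 UMIs, and 126 barcodes just outside with 1 or 2, with a median depth of 3008. Of those 45, 8 had a UMI of the pericyte channel genes Kcnj8 or Abcc9, against 10 of the 315 members with 10 UMIs or more. There were 29 members with a single Myl9 UMI and 52 barcodes with none that met the other limits. A further 10 barcodes failed only for more than 2 endothelial UMIs, and their median depth was 8252 UMIs.

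The upstream sequences of 4 contractile genes are shown because serum response factor binds one motif, the CArG box, which is CC followed by 6 bases of A or T and then GG and has the same pattern on both strands. The RefSeq windows of build GRCm38.p6 were searched over the 250 bases before each gene's start. A box was found in 439 of 27025 genes (1.62%), and a box with at most 1 base other than A or T in its middle in 9.78%. Among 30 contractile genes 27 had a window, and 4 of them (Myl6, Vcl, Ldb3 and Filip1l) held an exact box while 8 held one at the looser setting. Of 12 immediate early genes with a window, 2 held an exact box (16.7%) and 5 a looser one (41.7%). Of the 9 pericyte markers with a window, 0 held a box at either setting. Myl9 held 1 exact box starting 161 bases before its start and a second with 1 mismatch at 99 bases. Acta2 held 2 boxes with 1 mismatch each, at 84 and 34 bases, and because a GENCODE exon covers them only 30 bases around each are given. Crip1, a LIM-domain protein of smooth muscle, held 2 with 1 mismatch, and Filip1l, a filamin A binding protein, held 1 exact box at 62 bases. Its other window, chr16:57353027-57353276, held none, and Myl6 also had a window without a box. A gene with several windows was counted when any of them held a box. Most contractile genes, Cnn1, Des, Tpm2 and Lmod1 among them, held none at either setting, and Tagln had no window. The stretches below run 5′ to 3′ on the strand named, stop where a GENCODE exon begins, and have the boxes in capitals. A match is a description of these letters and no binding was measured.
Myl9, chr2:156775214-156775419 (plus strand): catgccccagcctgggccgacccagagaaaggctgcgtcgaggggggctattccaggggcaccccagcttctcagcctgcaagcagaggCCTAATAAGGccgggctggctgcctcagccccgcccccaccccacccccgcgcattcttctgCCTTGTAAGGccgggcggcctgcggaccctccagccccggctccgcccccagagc
Crip1, chr12:113151762-113152011 (plus strand): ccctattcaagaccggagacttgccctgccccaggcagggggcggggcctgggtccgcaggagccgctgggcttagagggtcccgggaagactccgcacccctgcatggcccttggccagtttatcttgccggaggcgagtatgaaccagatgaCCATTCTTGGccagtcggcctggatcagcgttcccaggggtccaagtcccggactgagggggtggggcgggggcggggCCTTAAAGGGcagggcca
Filip1l, chr16:57548992-57549241 (plus strand): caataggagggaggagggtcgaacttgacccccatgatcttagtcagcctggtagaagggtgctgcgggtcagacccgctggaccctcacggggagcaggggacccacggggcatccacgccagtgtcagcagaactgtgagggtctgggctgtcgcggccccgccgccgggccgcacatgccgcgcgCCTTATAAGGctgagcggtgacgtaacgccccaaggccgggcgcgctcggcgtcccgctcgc
Acta2, chr19:34255438-34255467 (minus strand): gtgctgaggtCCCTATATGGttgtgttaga
Acta2, chr19:34255388-34255417 (minus strand): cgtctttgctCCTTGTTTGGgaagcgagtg

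Within the members, contractile transcripts moved with one another across barcodes. The 426 barcodes were ordered by the share of their UMIs that fell on Acta2 and Tagln, in 5 bins of 39, 55, 94, 140 and 98 barcodes. Myh11 stood at 529, 2209, 4061, 5693 and 6764 CPM from the lowest bin to the highest. Calponin (Cnn1) stood at 0, 6.59, 62.9, 198 and 688 CPM, and phospholamban (Pln), the brake on the calcium pump of the sarcoplasmic reticulum, at 71.4, 290.1, 673, 959.8 and 1227 CPM. Higher actin went with higher levels of these contractile genes, and calponin had a UMI in 44.9% of the barcodes with a share above 2% and in 1.82% of those between 0.25 and 0.5%. Rgs5, a regulator of G protein signalling found in both mural types, stood at 2933, 8314, 8397, 5459.7 and 2263 CPM. Vitronectin (Vtn), a secreted pericyte marker, stood at 395, 745, 440.4, 358 and 242 CPM. Both were highest in the middle bins and lower where actin was highest.

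The same order was seen in single pools when members were split at a share of 1%. Rgs5 was lower in the high-share barcodes in 8 of 8 pools, at 4207 ± 968 CPM against 7372 ± 3338 CPM (SD, n = 8 pools). Among all members the pericyte markers did not share one course. Vtn, Kcnj8 and Abcc9 were each higher in the high-share barcodes in 1 of 8 pools, but Higd1b was higher in 4 of 8, at 399 ± 95.8 against 392 ± 250.2 CPM, and Pdgfrb in 5 of 8, at 97.1 ± 63.9 against 107 ± 47.8 CPM. Kcnj8 and Abcc9 were near the floor, with a UMI of either in 23 of 426 members. A pool with 0 on both sides would count as not higher, so their 1 of 8 does not show a fall in the rest. Myh11, Cnn1, Pln, Lmod1, Tpm2 and Crip1 were each higher there in 8 of 8 pools, and Des in 7 of 8. Npy1r, the neuropeptide Y receptor that mediates constriction, was higher in 8 of 8 pools, at 404 ± 112 against 179.7 ± 68.5 CPM. Pde5a was higher in 7 of 8 and Ednra and Gucy1a1 in 6 of 8. Notch3 was higher in 4 of 8 pools, so it did not follow the order. These are descriptions, with no test, because the share is built from 2 of the rule's genes and every gene of a barcode shares its total. The neuron markers moved along the same axis, from 12694 CPM in the lowest bin to 2467 CPM in the highest, and the lowest bin was the deepest, with a median of 4324 UMIs. Without the 74 neuron-rich barcodes the neuron markers stood between 2023 and 2841 CPM in all 5 bins. Myh11 then stood at 516, 2767, 4853, 6038 and 6688 CPM and Rgs5 at 3679, 17509, 13093, 6694 and 2329 CPM, with 19 barcodes left in the lowest bin. Split at 1% without those 74, Vtn was higher in the high-share barcodes in 0 of 8 pools (339 ± 196 against 885 ± 386 CPM). Pdgfrb was higher there in 2 of 8 (104 ± 66.4 against 255 ± 159 CPM) and Higd1b in 3 of 8 (451 ± 104 against 669 ± 362 CPM). The means of Vtn, Pdgfrb and Higd1b were thus each lower there. Npy1r was then higher there in 7 of 8 pools (416 ± 122 against 234 ± 207 CPM), Pde5a in 5, Ednra in 3 and Gucy1a1 in 2. Myh11, Cnn1, Pln, Lmod1, Tpm2 and Crip1 stayed at 8 of 8, with Des and Sncg at 6.

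**Figure D1:**
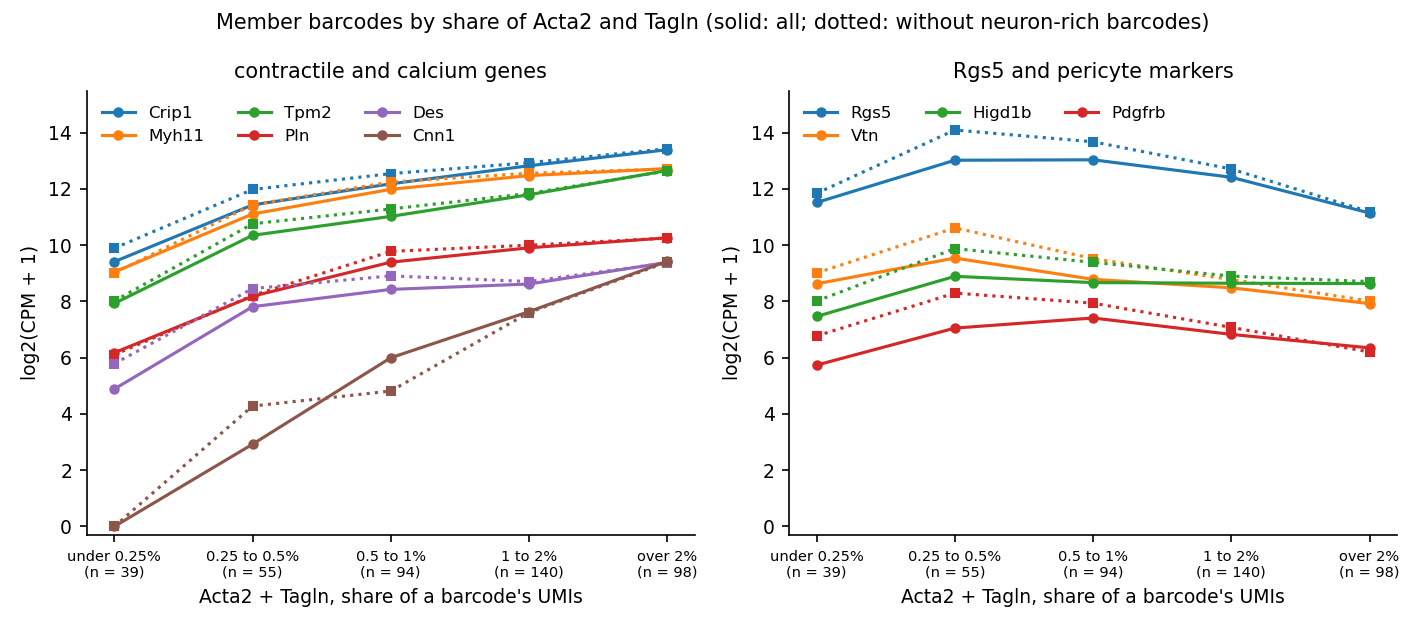
Level of 6 contractile or calcium genes (left) and of Rgs5 and 3 pericyte markers (right), as log2(CPM + 1) of the summed UMIs of the member barcodes in each bin of Acta2 and Tagln share. Solid lines are all 426 members and dotted lines leave out the 74 barcodes rich in neuron markers. The genes on the left climb from left to right, while Rgs5 and Vtn peak in the middle bins. The exception is the dotted line of Des, which drops from 480 to 417 CPM between the bins of 0.5 to 1% and 1 to 2%.

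Against pericytes, the vascular smooth muscle cells had higher contractile transcripts and lower fibroblast and pericyte markers, while Rgs5 and Rgs4, shared by both mural types, were not called. Pericytes were gated from the same 8 pools by Kcnj8, Abcc9, Higd1b and Vtn with at most 1 UMI of Acta2 and Tagln, and the 10 genes of both gates were left out of the test. Of 2404 genes tested, 483 were called at an adjusted p under 0.05 (20.1%), 279 higher in vascular smooth muscle cells (11.6%) and 204 lower (8.49%). The counts moved with the barcodes and pools used: 104 were higher and 110 lower with barcodes thinned to one depth, and 129 were lower without mock 2. Without neuron-rich barcodes 329 were lower. In both type comparisons the neuron-rich barcodes were left out of the members alone, and the other type kept its own. Among the 483, 182 were higher in all 8 pools (7.57%) and 114 lower in all 8 (4.74%). The gates are split on Acta2 and Tagln, and the pericytes were chosen by Kcnj8, Abcc9, Higd1b and Vtn. These values describe the genes that go with both choices. The pericyte gate also holds fibroblast-like barcodes: 125 of its 408 had more than 2 UMIs of 8 fibroblast genes, against 26 of the 426 members. The 8 genes were Dcn, Lum, Col1a1, Col1a2, Col3a1, Slc6a13, Igf2 and Pdgfra. Several values without those 125 are given below, with the 26 members left in. For the 8 genes such values follow in part from the removal itself and are only described. UMIs were summed per pool and tested with edgeR's quasi-likelihood test, with Benjamini-Hochberg adjustment over all genes tested, and fold changes are log2 ± SE.

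Contractile genes were higher almost throughout. Of 30 on the list 23 were tested, 21 rose, 0 fell and 2 (Map1b and Ppp1r14a) were not called, with a median log2 fold change of 2.60 beside -0.035 over all genes tested. Myh11 had a lowest, median and highest pool value of 2641, 3705 and 5342 CPM in vascular smooth muscle cells and 10.7, 101 and 180.4 CPM in pericytes. The 2 types did not overlap, and the log2 difference was 5.49 ± 0.29 (adjusted p = 3.8e-11). Crip1 stood at 2894, 5713 and 7059 CPM against 123, 216 and 293 CPM, a log2 difference of 4.70 ± 0.19 (adjusted p = 7e-13). Tpm2 and Lmod1 were higher by 4.67 ± 0.19 and 5.44 ± 0.32 on the log2 scale. Sncg, gamma-synuclein, was higher by 6.01 ± 0.45 and Palld, the actin-bundling protein palladin, by 6.96 ± 0.38. Pdlim3, a protein that binds alpha-actinin, had 194 UMIs in members and 0 in pericytes, which makes it at least 53.8-fold higher against a floor of 3 counts over the group. Caldesmon (Cald1) and Myl6 also passed but by less, 1.39 ± 0.15 and 2.50 ± 0.15.

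The upstream regulators were thinly counted. Only 3 of 14 could be tested, and Klf4 (3.30 ± 0.27), Nr4a1 (2.73 ± 0.32) and Mef2c (0.74 ± 0.22) all rose; Mef2c was not called without the fibroblast-rich pericytes (log2 0.56, adjusted p = 0.19), without mock 4 or without morphine 2. Klf4 and Nr4a1 are also immediate early genes. Myocd, which encodes myocardin, had a UMI in 7.04% of members, 0 of 408 pericytes and 0 of 1585 endothelial cells, too few for the filter on low counts.

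Among calcium genes the largest difference was that of Pln. It had 643 UMIs in members and 0 in pericytes, at least 178-fold higher against a floor of 3 counts, and lay at 331, 537 and 928 CPM (lowest, median and highest pool). Its exons overlap those of Cep85l on the other strand, and whether the authors counted by strand is not given in the sources used here. Of 24 calcium and channel genes 10 were tested, 6 rose and 0 fell. The calcium pumps Atp2a2 and Atp2b4 were higher by 0.81 ± 0.19 and 1.09 ± 0.28, and the potassium channel subunit Kcnab1 by 0.90 ± 0.27. The chloride channel Ano1 was higher by 1.16 ± 0.32 and the gap junction gene Gja4 by 0.59 ± 0.20. Without the fibroblast-rich pericytes 2 of the 10 were called, Pln and Atp2a2. The log2 differences of the other 4 were then 0.80 for Ano1 (adjusted p = 0.12), 0.88 for Atp2b4 (adjusted p = 0.052), 0.74 for Kcnab1 (adjusted p = 0.094) and 0.57 for Gja4 (adjusted p = 0.13). Gja4 also lost its call with DESeq2 (adjusted p = 0.12), without the filter on low counts, without Scrublet doublets, without mitochondrial genes and without any one of 6 of the 8 pools (mock 1, 2 and 4 and morphine 1, 2 and 4). Kcnab1 was not called without neuron-rich barcodes (0.67, adjusted p = 0.086), without mock 2 or without morphine 2, and Ano1 was not called without mock 4 (0.85, adjusted p = 0.0504).

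Among the receptors and cyclic GMP genes, 7 of 23 were tested, 3 rose and 1 fell. Npy1r stood at 191, 249 and 360.0 CPM in vascular smooth muscle cells and 10.7, 36.1 and 120.3 CPM in pericytes, and rose by 2.53 ± 0.30 (adjusted p = 2.3e-06). A UMI of it was found in 42.3% of members, 6.37% of pericytes and 8.24% of the deeper neurons. Pde5a, which breaks down cyclic GMP, rose by 1.99 ± 0.24, and the guanylyl cyclase subunit Gucy1a1, which makes it in answer to nitric oxide, by 0.63 ± 0.16, though the latter was not called without the fibroblast-rich pericytes. Gucy1b1, the partner subunit, stood at 571 ± 189.8 and 585 ± 124 CPM and was not called. Rgs5 and Rgs4 were high in both, Rgs5 at 5853 ± 1689 and 5559.7 ± 2310.0 CPM, with a difference of 0.16 ± 0.19 and a 95% interval of -0.23 to 0.55. With neuron-rich barcodes left out of the members alone Rgs5 was called higher, at 0.51 (adjusted p = 0.038). Without the fibroblast-rich pericytes its sign reversed, at -0.072. Each removal touched a single type, so these values set a trimmed group against a whole one. The signs of Rgs4 and Gucy1b1 also changed under other settings.

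Notch, growth factor and matrix genes went in both directions. The Notch target Hes1 rose by 1.48 ± 0.25 and the ligand Pdgfa by 1.29 ± 0.27, while Pdgfrb, the receptor that holds mural cells to endothelium, fell by 1.23 ± 0.22, so that 2 of 5 tested members of this list rose and 1 fell. Notch3, the mural Notch receptor, differed by 0.37 ± 0.27 and was not called. Of 12 matrix genes tested 2 rose, the integrin chain Itgb1 (1.07 ± 0.14) and asporin, Aspn (0.96 ± 0.17), and 4 fell, among them the basement membrane linker Nid1 (-1.81 ± 0.26) and the collagen chain Col1a2 (-1.59 ± 0.24). Without the fibroblast-rich pericytes the sign of Col1a2 reversed, to 0.97. Col1a2 was among the genes used for that removal, so its change follows in part from it. Of 11 matrix genes 5 then rose, Col1a2 included, and 1 fell.

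The genes lowest relative to pericytes were pericyte and fibroblast genes. Of 7 tested pericyte markers 0 rose and 5 fell, led by the transporter ATPase Atp13a5 (-4.62 ± 0.31), Ifitm1 (-2.89 ± 0.30) and Art3 (-2.64 ± 0.21), and the same count fell without the fibroblast-rich barcodes. The pericyte gate asked for UMIs of other pericyte markers, so these falls follow in part from it. Spp1, osteopontin, had a log2 difference of -5.18 ± 0.52, at 0, 0 and 199 CPM in members against 469, 944 and 1243 CPM in pericytes. The fibroblast genes Dcn (-4.42 ± 0.58), Igf2 (-4.35 ± 0.47) and Slc6a13 (-4.26 ± 0.48) fell too. Without the fibroblast-rich pericytes the log2 differences were -1.63 for Igf2 and -6.29 for Spp1, and Dcn, Slc6a13 and Nid1 had too few UMIs to be tested. Igf2, Dcn and Slc6a13 were among the genes used for that removal, so their change follows in part from it. Fibroblast markers took 0.180 to 0.977% of pericyte UMIs by pool and 0.0195 to 0.0810% of member UMIs. The apolipoprotein Apod, at -4.34 ± 0.53, stood at -0.37 without those barcodes and was not called (adjusted p = 0.67). Of 483 calls, 421 could be tested without them and 318 were still called, 317 in the same direction. The oligodendrocyte markers also fell, 8 of 8 tested, and took 0.388 to 3.25% of pericyte UMIs and 0.0935 to 0.744% of member UMIs. Without the fibroblast-rich pericytes 4 of 8 fell, with a median of -1.56; their part in the other differences was not tested.

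Immediate early genes, which are induced within minutes of a stimulus and also during tissue dissociation, were higher in vascular smooth muscle cells than in pericytes. Of 12 tested, 11 rose and 0 fell, with a median of 1.64. Fos stood at 937, 2054 and 2844 CPM against 22.0, 299.8 and 1865 CPM and rose by 2.22 ± 0.34 (adjusted p = 6.2e-05). Atf3 rose by 3.62 ± 0.44 and Btg2 by 1.87 ± 0.27. Of 11 glucocorticoid-responsive genes tested 5 rose and 0 fell, with Cebpb at 2.91 ± 0.27 and Errfi1, an inhibitor of epidermal growth factor receptors, at 2.43 ± 0.33 (3.67, adjusted p = 3.5e-13 without the fibroblast-rich pericytes). The mitochondrially encoded transcripts, a sign of RNA and cell quality, had 3 of 8 higher, the largest mt-Co1 at 0.56 ± 0.15.

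**Figure D2:**
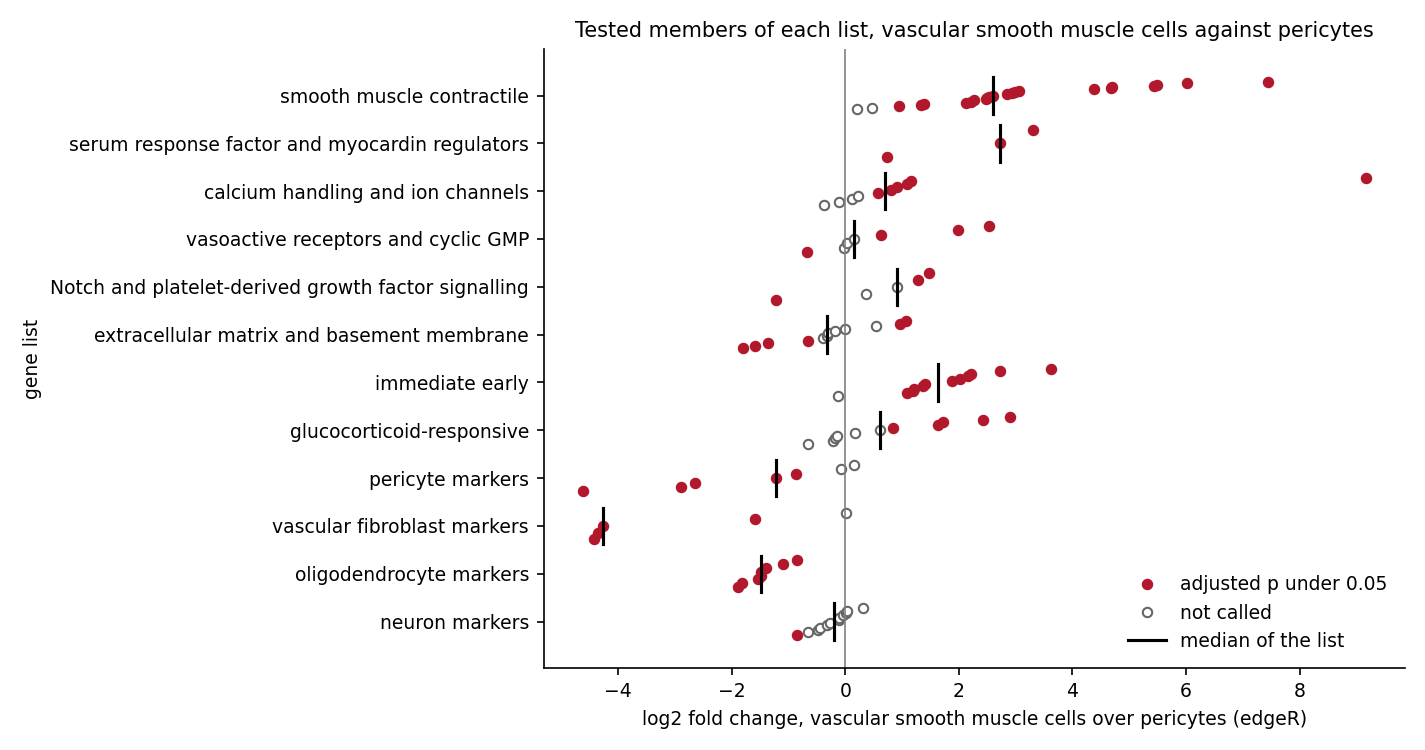
Each point is a tested gene of the list named on the left, placed by its log2 fold change in vascular smooth muscle cells over pericytes (edgeR, 8 pools of each). Filled points had an adjusted p under 0.05, open points did not, and black ticks are list medians. The contractile genes (median 2.60) and immediate early genes (median 1.64) lie right of 0, and pericyte markers (median -1.23) lie left.

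Against endothelial cells the vascular smooth muscle cells differed on most of the vascular lists. Endothelial cells were gated by at least 5 UMIs of Cldn5, Flt1 and Ly6c1. They had at most 1 UMI of Acta2 and Tagln and at most 1 of Kcnj8, Abcc9, Higd1b and Vtn. The 10 genes of these gates were left out of the test. The gates are split on smooth muscle and endothelial genes, so these values describe the genes that go with that split. Of 4421 genes tested, 1623 were called (36.7%), 713 higher (16.1%) and 910 lower (20.6%). Among them 407 were higher in all 8 pools (9.21%) and 648 lower in all 8 (14.7%). Of 26 contractile genes tested 25 were higher and 1, the intermediate filament gene Synm (-0.42 ± 0.15), was lower. Synm was not called with DESeq2, the stricter gate or thinned barcodes, nor without mock 3, morphine 1, morphine 3 or morphine 4, and had the other sign without the neuron-rich barcodes (0.083). Myh11 stood at 2641, 3705 and 5342 CPM against 0, 2.95 and 17.4 CPM, a log2 difference of 9.31 ± 0.27 (adjusted p = 2.1e-17). Desmin (Des) stood at 178, 315 and 435 CPM against 0, 0 and 1.63 CPM, and rose by 8.88 ± 0.33. Map3k7cl had the largest difference of the genes tested, 9.33 ± 0.30.

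All 11 calcium and channel genes tested were higher than in endothelial cells, led by Pln (8.13 ± 0.27), the calcium-activated chloride channel Ano1 (7.50 ± 0.39) and Casq2 (6.18 ± 0.36). Of 12 receptor and cyclic GMP genes 11 rose and 0 fell. Rgs5 rose by 6.56 ± 0.27 and Npy1r by 4.76 ± 0.23. Mrvi1, a substrate of cyclic GMP kinase that dampens calcium release, rose by 8.27 ± 0.36. Ednra, the endothelin receptor of smooth muscle, lay at 56.7, 113 and 216 CPM against 0, 0 and 3.17 CPM and was higher by 6.90 ± 0.42. Notch3 and Pdgfrb, both mural receptors, were higher by 6.68 ± 0.35 and 5.77 ± 0.42, while Pdgfb, the ligand that endothelium makes, was lower, at -3.18 ± 0.31. Of the 14 genes tested on that list 7 rose and 5 fell.

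All 12 endothelial markers that were not part of a gate were lower, from -8.19 for the organic anion transporter Slco1a4 to -1.55 for the junction protein Esam. Xdh, Robo4, She, Slc38a5, Ceacam1, AU021092 and AW112010 had 0 UMIs in the members. Xdh, xanthine dehydrogenase, was therefore at least 69.7-fold lower and Robo4, an endothelial guidance receptor, at least 43.3-fold lower against a floor of 3 counts over the group. Ly6c2 also had 0 UMIs, but it is a near copy of the gate gene Ly6c1 and is given as uncertain. Klf2, a factor induced in endothelium by flow, was lower, at -3.68 ± 0.22, and so was fibronectin (Fn1), at -5.75 ± 0.31. The 4 haemoglobin genes tested were all lower, and red blood cell genes took 1.33 to 3.59% of endothelial and 0.00756 to 0.101% of member UMIs. Of 13 immediate early genes 8 rose and 4 fell. Of 18 glucocorticoid-responsive genes 2 rose, Cebpb (4.75 ± 0.26) and Errfi1 (3.96 ± 0.19), and 11 fell.

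**Figure D3:**
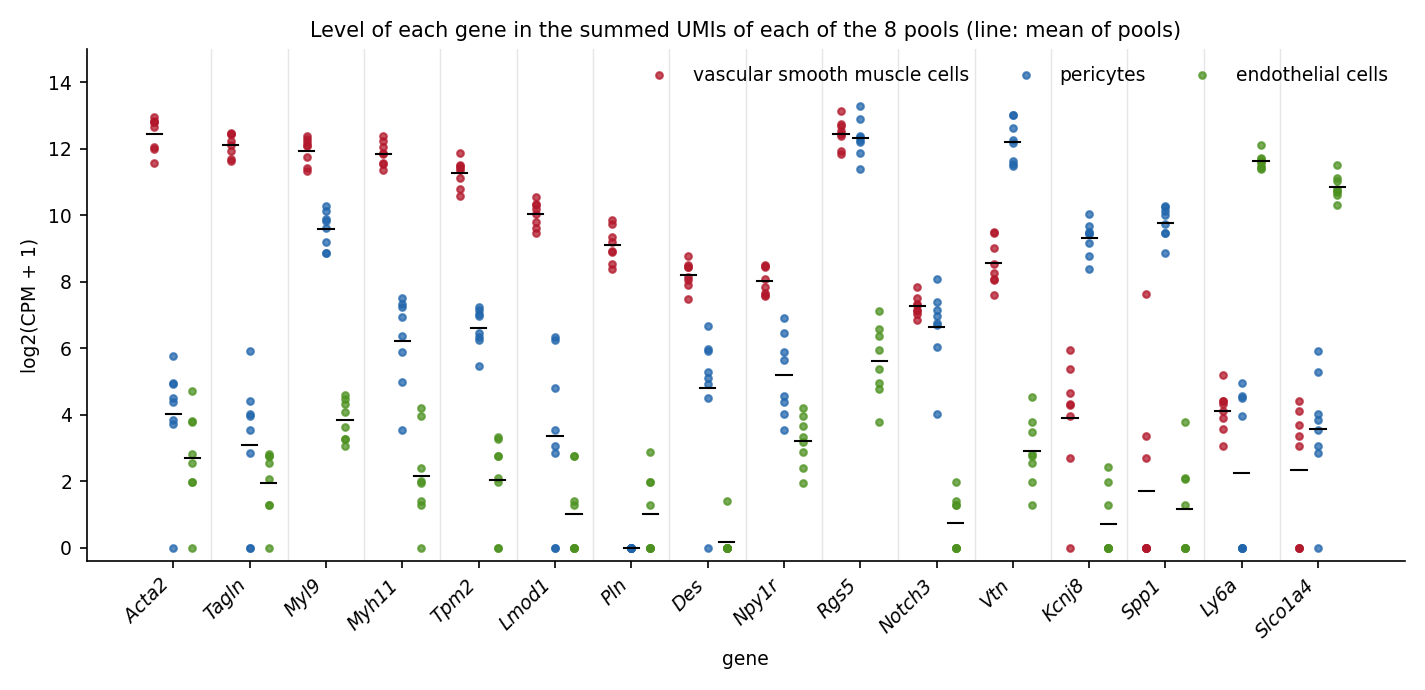
Level of 16 genes as log2(CPM + 1) in the summed UMIs of each of the 8 pools (points), for vascular smooth muscle cells, pericytes and endothelial cells, with a line at the mean. Contractile genes such as Myh11 and Lmod1 lie highest in vascular smooth muscle cells, Rgs5 overlaps between the mural types, and Ly6a and Slco1a4 lie highest in endothelial cells. Acta2, Tagln, Myl9, Vtn and Kcnj8 were used in a gate.

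Morphine was next compared with mock in the vascular smooth muscle cells. Their share of kept barcodes was 0.971, 1.80, 1.57 and 0.897% in mock pools 1 to 4 and 1.09, 1.37, 1.71 and 0.876% in morphine pools 1 to 4. The groups overlapped, with 1.31 ± 0.44% in mock and 1.26 ± 0.36% in morphine (SD, n = 4 pools each; p = 0.86, exact two-sided permutation test, adjusted 0.89 over 8 tests). The smallest p that 4 against 4 pools can give is 0.0286. The exact (Clopper-Pearson) 95% interval of a single pool, such as 0.646 to 1.40% in mock 1, covers counting error only. In such sums fewer cells of a type and fewer transcripts per cell cannot be told apart. Median depth was 1636 ± 335 UMIs in mock and 1512 ± 359 in morphine (exact permutation p = 0.63). The median mitochondrial share was 7.38, 4.57, 3.90 and 6.51% in mock and 8.63, 6.41, 5.85 and 8.23% in morphine, higher by 1.69 percentage points in morphine (exact permutation p = 0.17, adjusted 0.69). It was higher in morphine than in the mock pool of the same number, which has the same age range and table size, in 4 of 4 pairs (exact two-sided sign-flip permutation p = 0.125, the smallest that 4 pairs can give). The rise was not particular to the members. Over all kept barcodes the median was 4.57, 3.45, 3.01 and 3.88% in mock and 5.53, 5.08, 4.82 and 7.01% in morphine, also higher in every pair. By summed member UMIs, the listed mitochondrial genes took 6.87% in mock 1 and 6.53% in morphine 1, the only pair that went the other way.

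**Figure D4:**
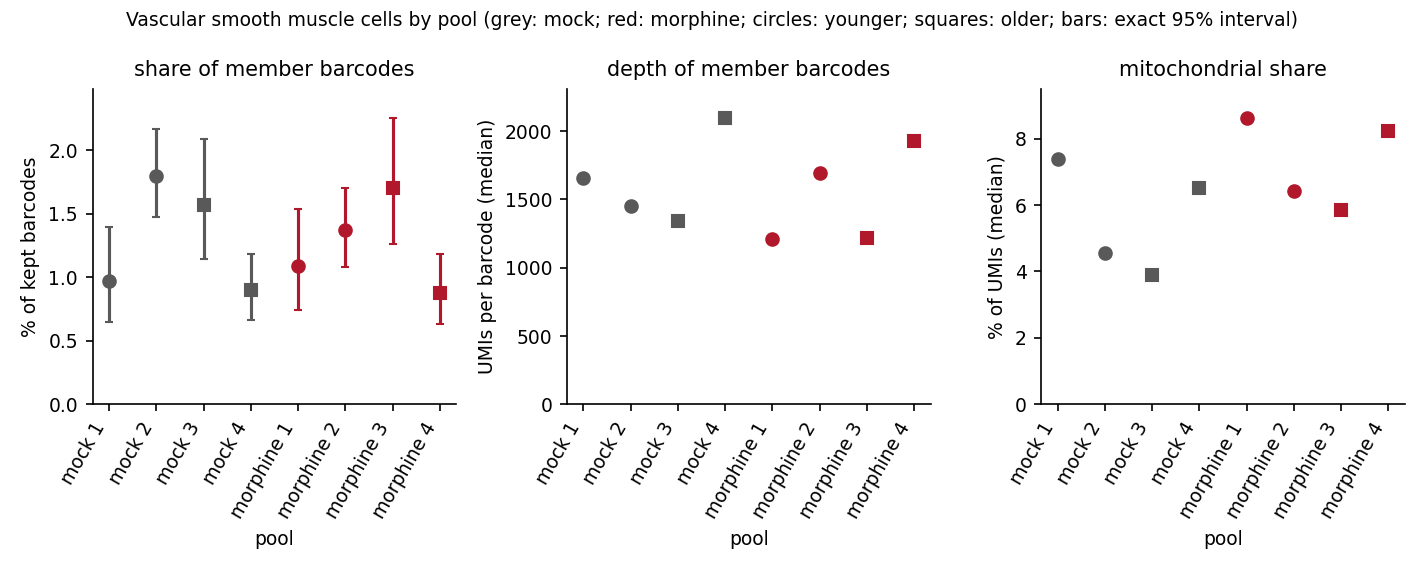
Share of vascular smooth muscle cells among kept barcodes with its exact 95% interval (left), median UMIs per member barcode (middle) and median mitochondrial share (right) in each of the 8 pools. Mock pools are grey and morphine pools red, circles are younger and squares older. The treatment groups overlap in all 3 panels.

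No gene passed the threshold for morphine. Of 2408 genes tested 0 were called (0%) by edgeR's quasi-likelihood test, 57 had an unadjusted p under 0.05 (2.37%), and DESeq2 called 0 with 38 under that level. The lowest adjusted p was 0.999. Of 27 contractile genes tested 0 rose and 0 fell, with a median log2 difference of -0.037. Myh11 stood at 2979, 3756, 4272 and 4825 CPM in mock pools 1 to 4 and 2641, 3654, 5342 and 3070.4 in morphine pools 1 to 4, a difference of -0.012 ± 0.27 with a 95% interval of -0.58 to 0.56. The groups overlapped. None of 12 calcium, 11 receptor or cyclic GMP, 9 Notch and growth factor, 12 matrix and 12 immediate early genes was called either, nor any of the 6 pericyte markers tested. By sign, 1 of the 12 immediate early genes (median -0.20) and 0 of the 6 pericyte markers (median -0.30) had a positive difference. Over all genes tested 1238 of 2408 did, with a median of 0.013. Pericyte markers took 0.662 to 1.10% of member UMIs in mock and 0.489 to 0.807% in morphine pools, and neuron markers 0.588 to 0.820% and 0.187 to 1.12%. Their part in the values below was not tested.

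The gene with the smallest p among those lower with morphine was Mgp, matrix Gla protein, an inhibitor of vessel calcification. It lies on chromosome 6 at 136872435-136875823 (minus strand) and stood at 831, 872, 628 and 932 CPM in mock pools 1 to 4 and 454, 345, 468 and 442 CPM in morphine pools 1 to 4. Every morphine pool lay below every mock pool, and such a separation in either direction held for 35 of 2408 genes (1.45%). The log2 difference was -0.86 ± 0.27 and was not called (adjusted p = 0.999, edgeR). The values came from 630 UMIs in 201 barcodes, of which the richest held 5.08%. Stmn1, a microtubule regulator of growing cells, differed by -1.35 ± 0.47, Nsd2 by -1.15 ± 0.42, Mrpl42 by -0.90 ± 0.32, Hmgn2 by -1.52 ± 0.57 and Apold1, an endothelial early response gene, by -1.28 ± 0.50, none of them called.

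In the other direction the smallest p belonged to Ptgds, prostaglandin D synthase, with mock pools at 122, 411, 111 and 157 CPM and morphine pools at 1345, 805, 144 and 537 CPM, a difference of 1.78 ± 0.51. The groups overlapped, and 52.5% of its UMIs lay in 5 barcodes. Without the filter on low counts Ptgds was called (1.66, adjusted p = 0.00076). Gcc2, Igfbp4, Fam126b and Rbm5 differed by 0.98 ± 0.32, 1.09 ± 0.37, 1.15 ± 0.40 and 0.85 ± 0.30 and were not called.

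Glucocorticoid-responsive genes were not called either. Tsc22d3, the glucocorticoid-induced leucine zipper, measured 101, 102, 111 and 69.3 CPM across mock pools 1 to 4, while morphine pools 1 to 4 gave 162, 87.6, 264 and 302. Morphine 3 and 4, the older pools, were highest and morphine 2 lay among the mock pools; the difference was 1.17 ± 0.40 (adjusted p = 0.999). Cdkn1a, the cell cycle inhibitor p21, stood at 365, 115, 506 and 277 and 357, 192, 468 and 191 CPM, with a difference of 0.042 ± 0.43 and a 95% interval of -0.85 to 0.94. Its sign changed under other settings. Sgk1, Fkbp5 and Tma16 had 64, 46 and 18 UMIs in all and were below the filter. Fkbp5, a cochaperone of the glucocorticoid receptor, had 0, 8, 2 and 3 UMIs in mock and 7, 12, 5 and 9 in morphine pools, and without the filter its log2 difference was 1.56 (adjusted p = 0.82). Of 11 glucocorticoid-responsive genes tested 0 were called. The ribosomal transcript mt-Rnr2 averaged 32849.9 ± 10575 CPM over mock pools and 47219 ± 5029.9 over morphine pools (SD, n = 4 each), a difference of 0.60 ± 0.26 that was not called.

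Opioid receptor transcripts were few. Oprm1, the mu receptor that morphine binds, had 2 UMIs, in 0.469% of members, against 1.39% of neurons. Oprd1 had 4 UMIs and Oprk1 20, the latter in 3.76% of members, 2.33% of endothelial cells and 16.9% of neurons. No difference from background was read from these shares.

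Calls that appeared when low counts were not filtered included genes with most UMIs in few barcodes. Without the filter 16 genes were higher and 7 lower with morphine. Ttr, the thyroid hormone carrier of the choroid plexus, was among them, and 3813 of its 3984 UMIs lay in 1 barcode of morphine 1. Dcn had 26 of 39 UMIs in 1 barcode of morphine 4, and Apod 258 of 577. Igf2 had 77.8% of 90 UMIs in 5 barcodes.

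The response to morphine was also compared between types, as the difference of the 2 differences. Of 3409 genes tested against pericytes 0 were called (0%), with 121 at an unadjusted p under 0.05 (3.55%), and DESeq2 called 0 with 60. Of 5737 tested against endothelial cells 0 were called (0%), with 200 under that level (3.49%), and DESeq2 called 0 with 106. Igf2 had the smallest p against pericytes, at 3.64 ± 0.78, and Gsta4, a glutathione transferase, against endothelial cells, at 2.70 ± 0.61. Igf2 was called by edgeR without the filter on low counts (3.55, adjusted p = 4.3e-08) and without morphine 3 (4.31, adjusted p = 2.8e-05). Gsta4 was called without that filter (2.65, adjusted p = 0.020). Of 8 fibroblast markers tested against pericytes 7 had a positive difference and 0 were called. Their median was 2.15, beside 0.012 over all genes tested. The pericyte gate holds fibroblast-rich barcodes, as given above. Mgp had the next smallest against endothelial cells, with a difference of -1.59 ± 0.38 (adjusted p = 0.82). Without the filter on low counts it was called, at -1.63 (adjusted p = 1.9e-05). For Cdkn1a the difference of responses was -0.65 ± 0.34 against endothelial cells and -1.58 ± 0.57 against pericytes, neither called. In the main fits a difference in response was not detectable at this depth, which does not show that the types respond alike.

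Older pools were compared with younger ones, with treatment as a covariate. Each age held 2 pool numbers, and the fit treated its 4 pools as separate. Age therefore cannot be told apart from other things that pools of the same number share. The share of vascular smooth muscle cells was 1.26 ± 0.437% in older and 1.31 ± 0.367% in younger pools (SD, n = 4 each; exact permutation p = 0.89). Of 2408 genes 0 were called (0%) by edgeR, 128 had an unadjusted p under 0.05 (5.32%), and DESeq2 called 2, Egr1 higher and Hbb-bs lower, with 92 under that level. The smallest p belonged to Egr1, an immediate early transcription factor. It stood at 527, 328, 486 and 307 CPM in the younger pools mock 1, mock 2, morphine 1 and morphine 2. The older pools mock 3, mock 4, morphine 3 and morphine 4 stood at 1205, 724, 1020.4 and 1325 CPM. The groups did not overlap, which held for 114 of 2408 genes (4.73%), and the difference was 1.37 ± 0.30 (adjusted p = 0.84).

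Other early genes leaned the same way without being called. Fosb stood at 507, 148, 259 and 109.6 CPM in the younger and 860.4, 542, 492 and 471 CPM in the older pools, a difference of 1.34 ± 0.40, with mock 1 inside the older range. Rasd1, a small GTPase induced by glucocorticoids, differed by 1.09 ± 0.33 and Klf4 by 1.18 ± 0.50. Of 12 immediate early genes tested 11 had a positive difference and 0 were called, with a median of 0.61 beside -0.0050 over all genes tested. Without the 74 neuron-rich barcodes Egr1 (2.22), Fosb, Rasd1 and Gadd45b were called higher and Ptgds lower. Without the filter on low counts Egr1 (1.41, adjusted p = 0.0044) and Fosb (1.39, adjusted p = 0.036) were called higher, and Hbb-bs (-2.27, adjusted p = 0.00032), Hspa1a (-1.53, adjusted p = 0.0044) and Ptgds (-1.40, adjusted p = 0.021) lower. Without mock 1 and morphine 1 Egr1, Fosb, Rasd1, Btg2 and Gadd45b were called higher, with Egr1 at 1.76 (adjusted p = 0.016). Neuron markers took 0.588 to 0.831% of member UMIs in younger and 0.187 to 1.12% in older pools. Oligodendrocyte markers were lower in older pools in sign for 8 of 8 tested (median -0.62), at 0.302 to 0.744% of member UMIs in younger and 0.0935 to 0.651% in older pools. The mitochondrially encoded transcripts were also negative for 8 of 8 (median -0.33), at 4.92 to 6.87% and 3.85 to 7.04%. The part of these 3 lists in the differences by age was not tested.

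A haemoglobin transcript had the smallest p among genes lower in older pools. Hbb-bs stood at 669, 148, 357 and 131 CPM in younger and 60.7, 44.1, 84.0 and 51.5 CPM in older pools, a difference of -2.33 ± 0.56 that edgeR did not call (adjusted p = 0.84). Its near copy Hbb-bt shares sequence with it, and both are red blood cell genes. Hspa1a, an inducible heat shock protein, stood at 1581, 208, 1021 and 301 CPM in younger pools, where mock 1 and morphine 1 held the high values. The older pools stood at 253, 296, 252 and 177 CPM, a difference of -1.65 ± 0.54 that was not called. The contractile genes showed a median difference of 0.036 over 27 tested, with 0 called.

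**Figure D5:**
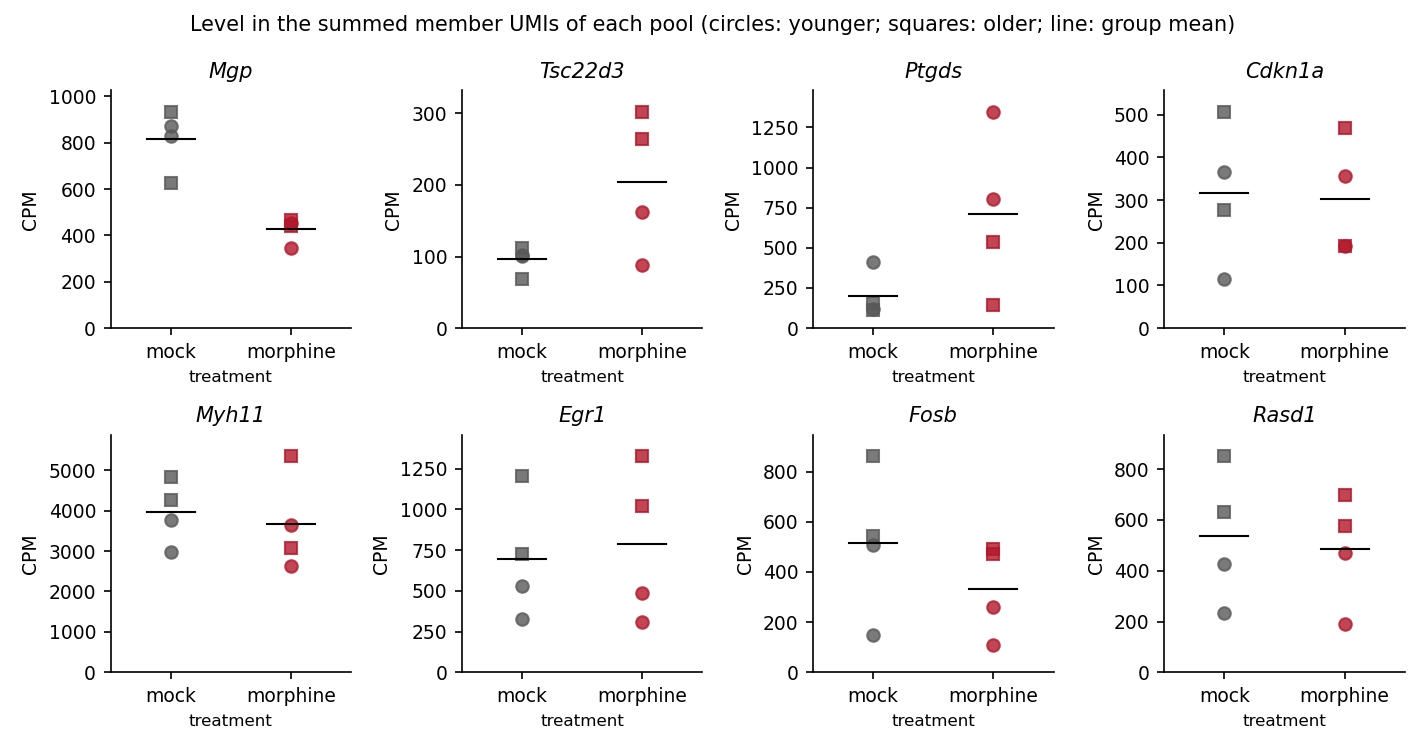
CPM of 8 genes in the summed member UMIs of each pool, for mock (grey) and morphine (red), with circles for younger and squares for older pools and a line at each group's mean. Mgp separates the treatments and Egr1 the ages, and edgeR called none of the 8 in either comparison.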

How the data were processed

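Drop-seq UMI counts per gene and barcode were deposited by the authors as 8 tables of the accumbens, 1 per pool. The submitters' processing notes name STAR 2.4.2a, Trimmomatic 0.36, HTSeq, DESeq2 and build mm10, without roles; whether counting used strand is not given in the sources used here. Gene symbols present in both symbol sets of the tables were kept, 20856 in all, which left out Gata6 and Cebpd.

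Members were summed per pool. Sums were tested with edgeR 4.0.16 (TMM scaling, filterByExpr, quasi-likelihood test, Benjamini-Hochberg adjustment over all genes tested, threshold 0.05) in R 4.3.3, with DESeq2 1.42.0 as the alternative. Types were compared with the pool as a block, and age with treatment as a covariate. The scripts were tested on simulated data. P-values measure the spread between pools of 2 mice. Scrublet (scanpy 1.11.5) marked 9 members as doublets, but it marked none or under 0.5% in 5 pools, so doublets were left in. Pericytes and endothelial cells were gated by marker UMIs, the latter by at least 5 UMIs of Cldn5, Flt1 and Ly6c1. A stricter member gate asked for at least 5 UMIs of Acta2 and Tagln and none of Kcnj8 and Abcc9, which left 366.

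The members and gene lists were chosen with earlier results of these data known. Named genes were the 12 with the largest change in each direction among those called and changed the same way in every pool. Where fewer than 6 were called, the 6 of smallest p were taken. For each list the 3 members of smallest p were added, for 6 lists the 5 of highest CPM, and 11 genes always. Fos, Ednra, Pdgfb, Synm and Myocd were chosen after their values were seen. Alternatives are given in the closing section.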

Additional observations from a re-analysis of the deposited data

Results flagged for a closer look

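Of 76 groups of 4 pools checked, a pool stood far from the other 3 for 7, and chance sets apart about 1 group in 20. Hspa1a stood apart in mock 1, at 1581 CPM, and in morphine 1, at 1021 CPM, the 2 pools with another symbol set. Mock 1 also stood apart for Hmgn2, at 608 CPM, and for Hbb-bs, at 669 CPM. Sgk1 stood apart in morphine 1, at 194 CPM, and in mock 3, at 70.9 CPM. Ptgds stood apart in mock 2, at 411 CPM, the highest mock pool.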

How the results depend on the processing

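Directions and calls were recomputed under other scaling, filters, gates and covariates, without each pool, and without barcodes rich in neuron or fibroblast markers; the settings without both pools numbered 1 and without fibroblast-rich pericytes were chosen after seeing the data. Without the filter on low counts, morphine gave 16 genes higher and 7 lower, age 5 and 11, pericytes 522 and 309, endothelial cells 1116 and 1784, and the differences of response 6 and 2 against pericytes and 6 and 8 against endothelial cells. Morphine gave 1 gene higher in younger pools alone and 5 in older pools alone. Age gave 1 higher and 1 lower with DESeq2, 4 and 1 without neuron-rich barcodes, and 5 higher without both pools numbered 1. Thinned barcodes gave 104 higher and 110 lower against pericytes and 344 and 381 against endothelial cells, with fewer UMIs in the fit. Without neuron-rich barcodes 329 were lower than in pericytes. Those barcodes were left out of the members alone, and Syt1 and Stmn2, which helped define them, then stood at -2.05 and -2.13. How much of the count follows from this was not tested.

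Reversed signs, whose cause was not tested, were few, and most belonged to small differences. Col1a2 and Synm were called in the main fits and reversed where barcodes were left out of a single type. Sparc, which also reversed, was called lower than in pericytes by edgeR with the stricter gate (-0.56, adjusted p = 0.041) and thinned (-0.70, adjusted p = 0.0093). The share difference (morphine minus mock) was 0.00340 with the stricter gate. For morphine, Cdkn1a stood at -0.044 without the filter, -0.069 with the stricter gate and -0.17 in older pools, and Myh11 at 0.011 without neuron-rich barcodes. Against pericytes, Rgs5 stood at -0.072 with the stricter gate, -0.057 thinned and -0.072 without fibroblast-rich pericytes. Rgs4 stood at -0.18 thinned, and at -0.13, with Col1a2 at 0.97 and Sparc at 0.073, without fibroblast-rich pericytes. Gucy1b1 stood at 0.071 without the filter and 0.086 without neuron-rich barcodes, and Synm against endothelial cells at 0.083.

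Leaving out each pool in turn moved the share difference from -0.196 to 0.116 for morphine and -0.193 to 0.119 for age, the median UMI difference from -263 to 29.9 and -7.42 to 286, and the mitochondrial difference by age from -1.35 to 0.114. Morphine then gave 0 to 3 genes higher, with 3 without morphine 3 (Ptgds, Igfbp2 and Igf2) and Igf2 without mock 3, and age 0 to 1 lower, Ttr without morphine 2. Genes higher than in pericytes numbered 215 to 298 and lower 129 to 197. The differences of response gave 0 to 3 higher against pericytes and 0 to 1 higher and 0 to 1 lower against endothelial cells. Cdkn1a ranged from -0.32 to 0.41, Myh11 from -0.28 to 0.090, Rgs4 from -0.072 to 0.14 and Gucy1b1 from -0.13 to 0.042.

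With the replicate number as a block, morphine gave 0 genes higher and 0 lower, the share difference was -0.0475 and Mgp differed by -0.87. Deviations of same-numbered pools correlated at 0.0839, 0.122, -0.0788 and 0.351. Same-numbered pools share an age range and a table size, but the labels name no shared litter, batch or day and not every pair exceeded 0.1, so the block stayed an alternative. Depth limits these results: a pool held 28 to 105 members.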
